A study of Mus musculus with 8 samples.

Results

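The genes described here are 9 components of the B cell receptor and its proximal signalling, Cd79a, Cd79b, Ms4a1, Cd22, Blnk, Btk, Blk, Bank1 and Syk, chosen by symbol from the 17384 genes of the deposited expression table. They were measured by RNA sequencing in spleen cells sorted as B220+CD3+, a population defined by the B cell isoform of CD45 together with the T cell receptor complex. One group carried the Eaf2-/- deletion on the Faslpr background (titled EAF2Faslpr, 4 libraries) and the other was Faslpr alone (4 libraries), so both groups shared the lpr defect of the death receptor gene Fas. Not given in the sources used here are the strain, the age and sex of the mice, the part of Eaf2 removed, and whether libraries came from separate mice. The p-values therefore cover no more than the variation among these libraries, which may be technical.

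In B cells the antigen receptor is a membrane immunoglobulin held with the CD79A and CD79B chains, which carry its signal into the cell. Src-family kinases such as LYN and BLK phosphorylate the tails of these chains, SYK docks there, and SYK and BTK act through the adaptor BLNK on phospholipase C gamma 2. T cells use the CD3 chains, LCK, ZAP70 and LCP2 in the same positions. Cells that accumulate in lpr mice are T cells that stain for B220, and B220 staining by itself does not make a cell a B cell.

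All 9 genes had more RNA in EAF2Faslpr than in Faslpr cells, by between 2.28-fold for Blnk and 4.74-fold for Cd79a. Each of the 9 passed the test across genes (edgeR's quasi-likelihood test, adjusted p under 0.05), where 7.14% of the 12340 genes tested passed in the same direction, 4.96% in the other and 12.1% in either. All 9 also had every EAF2Faslpr library above every Faslpr library, which held for 9.71% of genes tested. The 9 genes and the lists below were chosen with earlier results of these data known. The shares over all genes are therefore a background only, and do not test whether the chosen genes stand out. The median log2 fold change (EAF2Faslpr over Faslpr) was 1.79 for the 9 genes and -0.01 for all genes tested. Fewer cells of a type and less RNA per cell cannot be told apart in bulk libraries such as these.

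Libraries held between 15.6 and 18.6 megareads of estimated counts, and 3 reads, the limit used for a count of 0, corresponded to 0.161 to 0.193 CPM, counts per megaread after scaling. The targeted gene Eaf2 stood at 4.43, 4.2, 4.02 and 6.29 CPM in EAF2Faslpr libraries, against 25.7, 24.2, 20.7 and 31.5 CPM in Faslpr libraries and was thus lower in the group whose labels name it. Replicate 3 of EAF2Faslpr stood apart from the rest of its group: its 5 tested neutrophil genes summed to 109 CPM, against 12.9 to 19.8 CPM in the other EAF2Faslpr libraries and 12.5 to 17.4 CPM in Faslpr libraries. It was also the highest EAF2Faslpr library for all 9 genes described here. The library numbered 3 was the highest of the Faslpr group for all 9 as well. Calls of the genes and lists below that changed without these libraries are given beside them.

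Promoter sequences are shown because the 9 genes were higher together, though shared control through their promoters was not tested. RefSeq (GRCm38.p6, another build than the GRCm39 of the deposited table) gave 7 windows for 6 of them, Bank1, Blnk, Btk, Cd22, Cd79a and Syk. Each line gives the 250 bases before an annotated gene start, 5′ to 3′ on the gene's strand, with motif matches in capitals. The windows of Btk and Syk held no match and are not printed.
Cd79a, chr7:24897247-24897496, plus strand: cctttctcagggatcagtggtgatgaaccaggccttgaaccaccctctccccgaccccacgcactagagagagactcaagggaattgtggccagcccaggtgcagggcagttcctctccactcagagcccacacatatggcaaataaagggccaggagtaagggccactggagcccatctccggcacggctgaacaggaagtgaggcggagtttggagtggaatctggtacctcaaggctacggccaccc
Cd22, chr7:30879029-30879278, minus strand: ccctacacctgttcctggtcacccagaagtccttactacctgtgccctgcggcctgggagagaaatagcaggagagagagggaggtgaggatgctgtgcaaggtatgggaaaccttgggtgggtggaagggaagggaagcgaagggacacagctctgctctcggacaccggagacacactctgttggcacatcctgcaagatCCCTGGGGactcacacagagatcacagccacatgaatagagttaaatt
Blnk, chr19:40994222-40994471, minus strand: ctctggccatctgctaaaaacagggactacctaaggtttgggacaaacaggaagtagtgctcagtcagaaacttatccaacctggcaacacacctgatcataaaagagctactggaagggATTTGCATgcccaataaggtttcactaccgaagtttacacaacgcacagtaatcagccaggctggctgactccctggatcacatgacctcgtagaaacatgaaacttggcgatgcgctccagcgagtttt
Bank1, chr3:136326067-136326316, minus strand: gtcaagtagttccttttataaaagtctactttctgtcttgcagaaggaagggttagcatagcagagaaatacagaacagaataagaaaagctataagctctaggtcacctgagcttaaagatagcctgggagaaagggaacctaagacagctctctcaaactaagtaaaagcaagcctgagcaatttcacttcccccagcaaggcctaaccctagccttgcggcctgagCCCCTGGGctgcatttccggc
3 motifs were searched on both strands, the octamer ATTTGCAT bound by OCT factors, the letters CCCNNGGG of the EBF core and the letters GAGGAAGT of a PU.1 core, where N is any base. The octamer lay 130 bases before the start of Blnk, and 1.6% of 32851 promoter windows of the same length held one. EBF core letters lay 48 bases before the start of Cd22 and 21 bases before that of Bank1, and 11.8% of windows held them. No GAGGAAGT was found in the 7 windows, against 2.44% of all windows, and the Cd79a window held no exact match to any of the 3. Only these exact letters were searched, so a binding site spelled otherwise would be missed. A window without a match may therefore still hold a site for these factors.

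Among the signal chains of the receptor, Cd79a, whose product CD79A (Ig-alpha) is needed for receptor assembly, had 41.9, 47.2, 99.6 and 50.1 CPM in EAF2Faslpr libraries 1 to 4, against 8.19, 12.5, 16.95 and 12.7 CPM in Faslpr libraries. The lowest EAF2Faslpr library was 2.47 times the highest Faslpr library. Cd79a rose by a log2 fold change of 2.24 (SE 0.30, adjusted p = 0.00112), the highest of the 9 genes with all libraries. Without EAF2Faslpr replicate 3 it rose by 1.88, below Blk at 1.91 and level with Ms4a1 at 1.88, and without both replicates numbered 3 by 2.06, below Blk at 2.07 and Ms4a1 at 2.15. Its partner Cd79b, which encodes Ig-beta, had 35.3, 42.0, 65.9 and 35.4 CPM in EAF2Faslpr libraries, against 10.9, 17.2, 22.9 and 17.1 CPM in Faslpr libraries. The groups did not overlap here either, and the rise was smaller, 2.62-fold (log2 fold change 1.39, SE 0.25, adjusted p = 0.00501).

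The proportion of the 2 chains of this dimer was compared as well. Scaled for transcript length (TPM, as the authors computed it), the level of Cd79a divided by that of Cd79b was 1.47, 1.39, 1.87 and 1.75 in EAF2Faslpr libraries, against 0.927, 0.897, 0.918 and 0.923 in Faslpr libraries. Cd79a was thus above Cd79b in all 4 EAF2Faslpr libraries and below it in all 4 Faslpr libraries. Of the 36 ratios between pairs of the 9 genes, this one among them, 11 did not overlap between groups, where 21.3% of the pairs among all tested genes above 0 TPM in every library did not. Cd79b and Ms4a1 took part in 5 of the 11 each. Cd79b over Cd22 was 1.72 to 2.35 in EAF2Faslpr and 2.88 to 4.03 in Faslpr libraries. Ms4a1 over Syk was 1.22 to 1.67 in EAF2Faslpr and 0.907 to 1.03 in Faslpr libraries. These ratios were picked from the 36 after their values were seen and are given without a test.

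The other surface receptors rose as well. Ms4a1, the gene of the B cell antigen CD20, had 36.9, 34.7, 64.9 and 34.6 CPM in EAF2Faslpr libraries, against 7.22, 8.82, 14.3 and 8.02 CPM in Faslpr libraries. This is a 4.46-fold rise with separate ranges (log2 fold change 2.16, SE 0.26, adjusted p = 0.000694). Cd22, a sialic acid-binding lectin that recruits phosphatases to restrain the receptor, had 64.8, 63.4, 88.7 and 50.6 CPM in EAF2Faslpr libraries, against 11.3, 19.1, 22.9 and 13.5 CPM in Faslpr libraries. Cd22 had the smallest p of the 9, with a 4.003-fold rise (log2 fold change 2.001, SE 0.23, adjusted p = 0.000474), and its lowest EAF2Faslpr library was 2.21 times its highest Faslpr library.

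**Figure D1:**
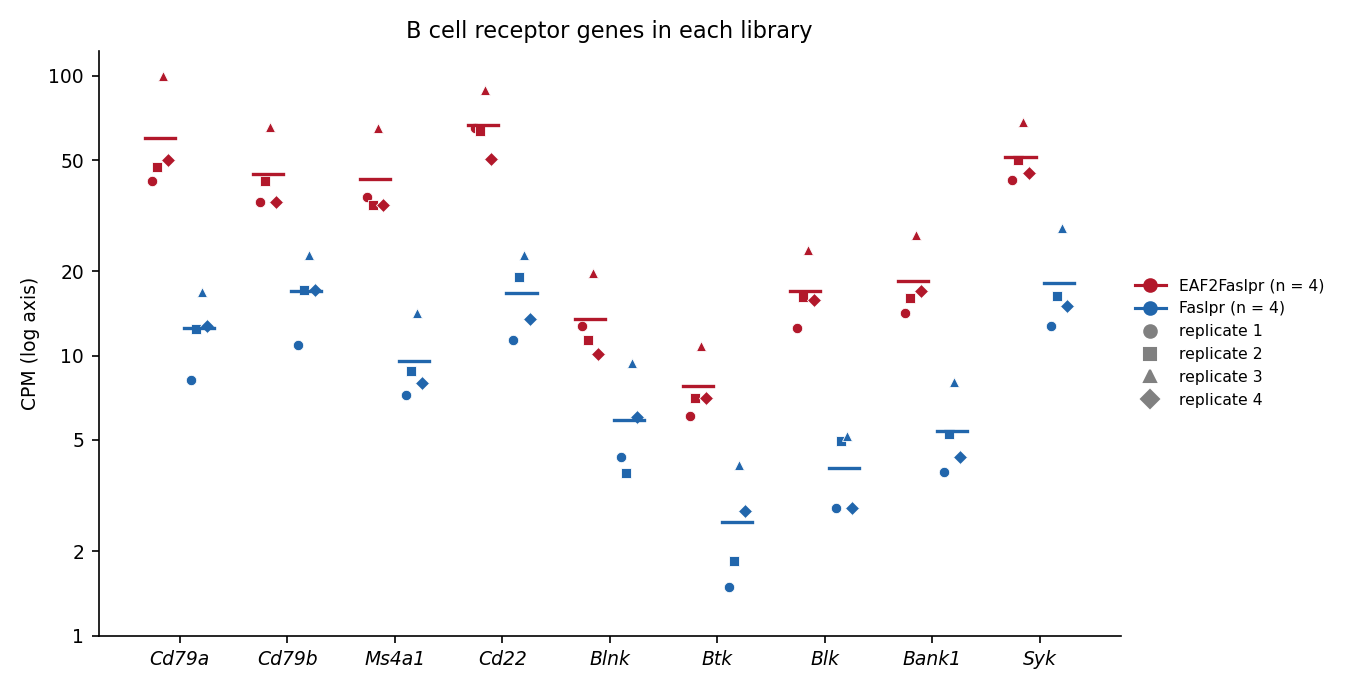
CPM on a log axis (vertical) of the 9 genes (horizontal) in each of 4 EAF2Faslpr and 4 Faslpr libraries; marker shapes are replicate numbers and bars are group means. Every EAF2Faslpr library lay above every Faslpr library for each gene, with the narrowest gap for Blnk (1.07 times), and the replicates numbered 3 were the highest of their groups.

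Of the 3 kinases, Blk, a Src-family kinase largely restricted to B lineage cells, had the largest fold change. It had 12.6, 16.2, 23.8 and 15.8 CPM in EAF2Faslpr libraries, against 2.87, 4.95, 5.17 and 2.85 CPM in Faslpr libraries (4.32-fold, log2 fold change 2.11, SE 0.26, adjusted p = 0.000679). The lowest EAF2Faslpr library was 2.43 times the highest Faslpr library. Syk, the kinase that binds the phosphorylated CD79 tails and is also present in myeloid cells, had 42.4, 50.1, 68.3 and 45.0 CPM in EAF2Faslpr libraries, against 12.8, 16.4, 28.6 and 15.01 CPM in Faslpr libraries. Its rise was 2.83-fold (log2 fold change 1.499, SE 0.24, adjusted p = 0.00313), with no overlap. Btk, the Tec-family kinase mutated in people with X-linked agammaglobulinaemia, was the least abundant of the 9, with 6.10, 7.04, 10.9 and 7.07 CPM in EAF2Faslpr libraries, against 1.49, 1.85, 4.07 and 2.80 CPM in Faslpr libraries. Its 3.03-fold rise (log2 fold change 1.6, SE 0.31, adjusted p = 0.00791) rested on 26 to 73.95 estimated reads per Faslpr library and 95 to 197 reads per EAF2Faslpr library.

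The adaptors closed the list. Bank1, a B cell scaffold that binds tyrosine kinases of the receptor, had 14.2, 16.1, 26.9 and 17.1 CPM in EAF2Faslpr libraries, against 3.84, 5.24, 8.03 and 4.36 CPM in Faslpr libraries (3.45-fold, log2 fold change 1.79, SE 0.26, adjusted p = 0.00191). Blnk, the adaptor that joins SYK to its targets, had 12.7, 11.4, 19.8 and 10.1 CPM in EAF2Faslpr libraries, against 4.36, 3.81, 9.41 and 6.02 CPM in Faslpr libraries. Here the groups nearly met, the lowest EAF2Faslpr library being 1.07 times the highest Faslpr library. The 2.28-fold rise of Blnk (log2 fold change 1.19, SE 0.30, adjusted p = 0.0268) was the least certain of the 9. It lost its call in 4 of the 8 fits that left out 1 library, without EAF2Faslpr replicate 3 (adjusted p = 0.0763) and without Faslpr replicates 1, 2 or 4 (adjusted p = 0.0748, 0.0758 and 0.0566), and also without both replicates numbered 4 (adjusted p = 0.0683). The other 8 genes passed in each of those fits. Without both replicates numbered 3, which was tried once the data had been seen, all 9 passed, at a median log2 fold change of 1.82.

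Levels of different genes can be compared only per length, in TPM. In EAF2Faslpr cells Cd79a was first at 142 ± 61.5 TPM and Cd79b next at 85.8 ± 26.4 TPM, followed by Cd22 (40.6 ± 9.06 TPM), Ms4a1 (33.2 ± 10.9 TPM), Syk (22.6 ± 4.84 TPM), Blnk (17.7 ± 5.38 TPM), Blk (16.01 ± 4.21 TPM), Bank1 (13.9 ± 4.14 TPM) and Btk (7.10 ± 1.83 TPM; SD, n = 4 for each). In Faslpr cells Cd79b led at 32.9 ± 10.1 TPM, then came Cd79a (30.1 ± 9.16 TPM), Cd22 (10.1 ± 3.62 TPM), Syk (7.92 ± 3.28 TPM), Blnk (7.79 ± 3.55 TPM), Ms4a1 (7.495 ± 2.75 TPM), Bank1 (4.07 ± 1.59 TPM), Blk (3.74 ± 1.32 TPM) and Btk (2.34 ± 1.11 TPM). Ranges of neighbours in this order were separate only between Cd79b and Cd22 and between Bank1 and Btk in EAF2Faslpr cells, and between Cd79a and Cd22 in Faslpr cells. The remaining neighbours overlapped in range. Compared within each library, most of them nonetheless kept this order in all 4 libraries of the group. The exceptions were Blnk over Blk in EAF2Faslpr cells (2 of 4 libraries), and in Faslpr cells Syk over Blnk (1 of 4), Blnk over Ms4a1 (3 of 4) and Bank1 over Blk (3 of 4).

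The 4 T cell receptor genes set beside them, Cd3e, Zap70, Lcp2 and Lck, had higher TPM than their B cell counterparts in all 8 libraries. Cd3e, which encodes a CD3 chain and marks the gated T cells, had 890.1 ± 71.9 TPM in EAF2Faslpr and 957 ± 47.5 TPM in Faslpr cells (SD, n = 4 each). Cd79a reached 16.5 ± 8.63% of the Cd3e level in EAF2Faslpr cells and 3.15 ± 0.98% in Faslpr cells, and Cd79b 9.87 ± 3.93% and 3.44 ± 1.07%. Syk was at 6.11 ± 1.51% of its T cell counterpart Zap70 in EAF2Faslpr cells and 1.75 ± 0.81% in Faslpr cells. Blnk was at 6.95 ± 2.26% and 3.21 ± 1.46% of the adaptor gene Lcp2, which encodes SLP-76, in EAF2Faslpr and Faslpr cells. Blk was at 1.27 ± 0.28% of the Src-family gene Lck in EAF2Faslpr cells and 0.30 ± 0.11% in Faslpr cells. Ranges overlapped for Blnk over Lcp2 alone.

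**Figure D2:**
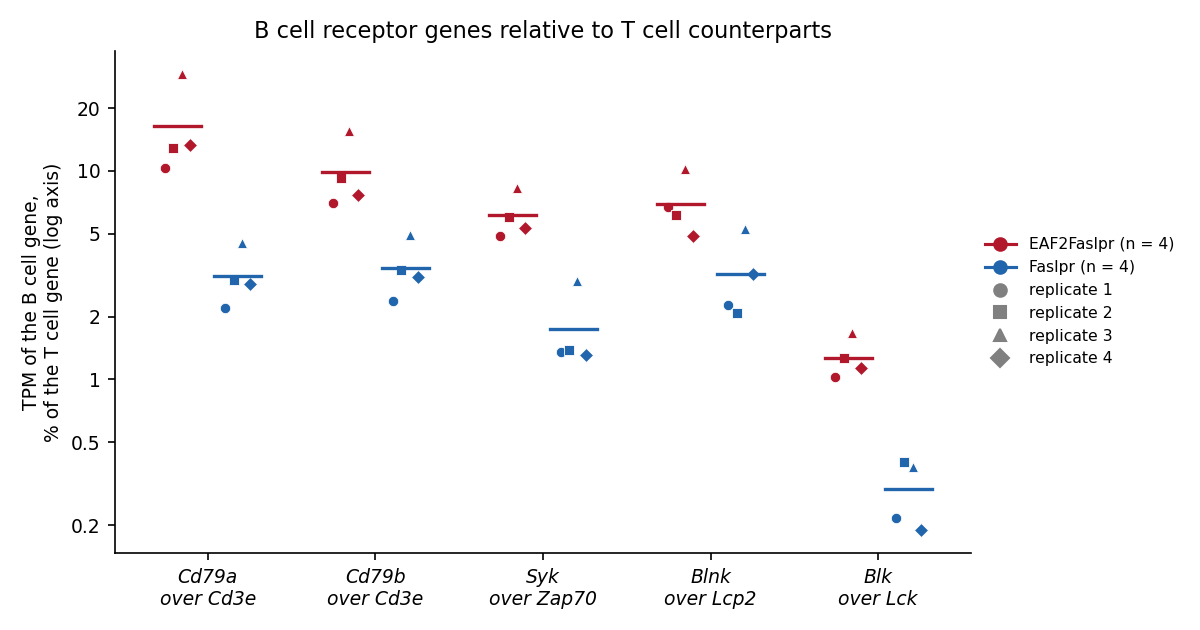
TPM of each B cell receptor gene as a percentage of the TPM of the T cell gene in the matching position (vertical, log axis), per library; bars are means of 4 libraries. Values for Blnk over Lcp2 ran from 4.84 to 10.1% in EAF2Faslpr and from 2.08 to 5.27% in Faslpr libraries and overlapped, whereas the other 4 ratios did not.

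Of the 12 T cell receptor counterparts examined, all tested, 2 rose and none fell, with a median log2 fold change of -0.0076; 2 were lower at an unadjusted p under 0.05, 1 by DESeq2 and 0 by limma-voom. Themis, a thymocyte-expressed signalling gene, rose 2.45-fold to 12.2 ± 3.19 CPM, against 4.95 ± 1.28 CPM in Faslpr cells (adjusted p = 0.00477). Plcg1, the phospholipase used by T cells, was 1.20-fold higher (237 ± 13.6 against 198 ± 14.3 CPM, adjusted p = 0.0437) but lost its call in 7 of the 8 fits that left out 1 library (adjusted p up to 0.130), all except the one without Faslpr replicate 3. Fyn, with the most reads of them over both groups together, stood at 1115 ± 92.7 CPM in EAF2Faslpr and 1285 ± 96.7 CPM in Faslpr cells and did not pass. Cd3e, Zap70, Lcp2 and Lck gave log2 fold changes of -0.11, -0.26, 0.07 and -0.02 and none of them passed. Zap70 passed as lower by DESeq2 (adjusted p = 0.0183) and when Faslpr replicate 3 was left out (adjusted p = 0.0487). The CD3 chain gene Cd3g, named after its value was seen, did not pass with all libraries (log2 fold change 0.16). It passed as higher without Faslpr replicate 4 (0.26, adjusted p = 0.0247) or without both replicates numbered 4 (0.29, adjusted p = 0.0275).

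Most receptors that work beside the B cell receptor rose too. Of 8 coreceptors and inhibitory receptors 7 rose and 1 fell, with a median log2 fold change of 2.02. The complement receptor Cr2 had 41.3 ± 21.1 CPM in EAF2Faslpr and 7.42 ± 2.93 CPM in Faslpr cells (5.57-fold, adjusted p = 0.00196). Siglecg, an inhibitory lectin like Cd22, rose 4.72-fold (adjusted p = 0.00271), and Fcrl1, an Fc receptor-like gene of B cells, rose 4.701-fold (10.6 ± 5.45 CPM in EAF2Faslpr and 2.25 ± 0.83 CPM in Faslpr cells, adjusted p = 0.00341). The member that fell was Cd81, a tetraspanin made by many cell types (16.7 ± 2.35 CPM in EAF2Faslpr and 27.2 ± 5.46 CPM in Faslpr cells, adjusted p = 0.0186), which lost its call without Faslpr replicate 1 (adjusted p = 0.0512) or 2 (adjusted p = 0.0589) and was named after its value was seen. Fcrl5 and Pirb, both inhibitory receptors of low level, lost theirs in 2 of the 8 such fits each (adjusted p up to 0.0585), Fcrl5 without EAF2Faslpr replicate 3 or Faslpr replicate 2, and Pirb without Faslpr replicates 1 or 2. The log2 fold change of Pirb was 1.55 without EAF2Faslpr replicate 3, against 2.18 with it. Cd72, another inhibitory receptor, lost its call without both replicates numbered 3 (log2 fold change 0.83, adjusted p = 0.0719, against 1.07 with them), which left 6 higher.

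Of 9 signalling genes shared by B and myeloid cells, 5 rose and 1 fell, and the median log2 fold change was 0.51. Pik3ap1, which encodes the PI3K adaptor BCAP, rose 3.44-fold (14.01 ± 3.27 against 4.05 ± 1.39 CPM, adjusted p = 0.00159). Rasgrp3, an activator of RAS, rose 2.44-fold (adjusted p = 0.00167) and Plcg2, the phospholipase downstream of BLNK, 2.54-fold (16.6 ± 2.74 CPM in EAF2Faslpr and 6.52 ± 2.09 CPM in Faslpr cells, adjusted p = 0.00276). Tec, with the most reads of this list and also used by T cells, was at 154 ± 21.7 CPM in EAF2Faslpr and 166 ± 3.84 CPM in Faslpr cells and did not pass. Dok3, an adaptor that restrains receptor signalling, was the one that fell (81.4 ± 7.24 against 111 ± 7.96 CPM, adjusted p = 0.00602), and was named after its value was seen.

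Signalling genes used by B and T cells alike differed in 3 of 20 cases, 2 higher and 1 lower, at a median log2 fold change of 0.02. Of all genes tested 12.1% passed in either direction, and neither this list nor the T cell counterparts was tested against that share. The phosphatase gene Ptpn6, whose product SHP-1 is recruited by CD22, rose 2.14-fold (86.1 ± 12.04 against 40.1 ± 8.93 CPM, adjusted p = 0.00168). The PI3K catalytic subunit gene Pik3cd also rose and the regulatory subunit gene Pik3r1 fell, by 1.83-fold (adjusted p = 0.00259) and 1.43-fold (adjusted p = 0.00660). Ptprc, the gene of CD45 and of the B220 epitope, had the most reads, at 2312 ± 114 CPM in EAF2Faslpr and 1989 ± 311 CPM in Faslpr cells, and did not pass. Without Faslpr replicate 3, or without both replicates numbered 3, the signalling gene Malt1 passed as well, which made 3 higher. Without EAF2Faslpr replicate 1, Cblb passed too, which made 2 lower, and without Faslpr replicate 4, Cblb and Itpkb did, which made 3.

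**Figure D3:**
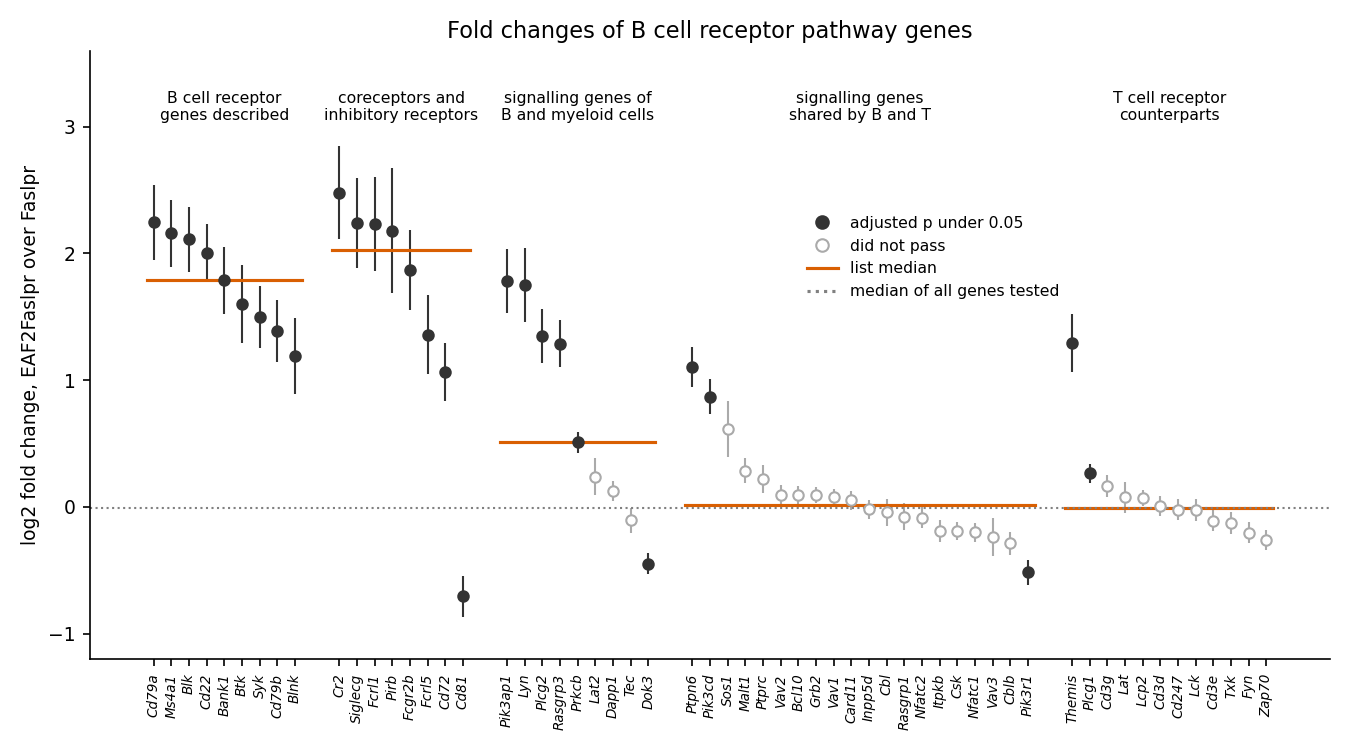
Log2 fold change, EAF2Faslpr over Faslpr (vertical, bars are standard errors), of the 9 genes and of 4 lists of pathway genes (horizontal), with list medians in orange and the median of all genes tested dotted. Medians were 1.79 for the 9 genes, 2.02 for coreceptors, 0.51 for B and myeloid signalling genes, 0.02 for shared genes and -0.0076 for T cell counterparts.

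Markers of other cell types were set beside these genes. Of 11 other B cell genes 9 rose and none fell (0 lower at an unadjusted p under 0.05, by DESeq2 or by limma-voom), and their summed level was 252 to 461 CPM in EAF2Faslpr and 220.4 to 253 CPM in Faslpr libraries; Cr2 stands in this panel and in the coreceptor list. Spib, one of the 9 and a transcription factor of B and dendritic cells, rose 1.64-fold (adjusted p = 0.0375) and lost its call in 6 of the 8 fits that left out 1 library, all except those without EAF2Faslpr replicate 1 or Faslpr replicate 4 (adjusted p up to 0.101). It also lost it without both replicates numbered 3 (adjusted p = 0.162) or 4 (adjusted p = 0.06), with the replicate block (adjusted p = 0.0755) and by limma-voom (adjusted p = 0.0503), which called 8 of the panel. Vpreb3 passed in addition without EAF2Faslpr replicate 2. Ralgps2, the panel gene with the most reads, was at 151 ± 28.4 CPM in EAF2Faslpr and 176 ± 11.3 CPM in Faslpr cells and did not pass. Of 9 macrophage genes 1 rose, Lyz2, at a log2 fold change of 2.94 (adjusted p = 0.0391), or 1.37 without EAF2Faslpr replicate 3 and 1.84 without both replicates numbered 3. Lyz2 lost its call without Faslpr replicates 1, 2 or 4 (adjusted p = 0.104, 0.112 and 0.0939), and no macrophage gene passed by DESeq2 or by limma-voom (adjusted p = 0.157 for Lyz2). The summed level of the 8 tested macrophage genes was 46.4 to 127 CPM in EAF2Faslpr and 45.9 to 54.9 CPM in Faslpr libraries, and Cd68, with the most reads, was at 27.2 ± 3.70 and 32.0 ± 5.56 CPM. None of 10 neutrophil genes passed by edgeR, with 4 of the 5 tested at an unadjusted p under 0.05, while 1, Ngp, passed by DESeq2 (adjusted p = 0.0191) and 0 by limma-voom. 3 passed without EAF2Faslpr replicate 1 and 4 without EAF2Faslpr replicate 2. The neutrophil gene with the most reads, Cxcr2, was at 11.4 ± 1.68 and 12.5 ± 1.96 CPM. In the antibody-secreting cell list 1 of 8 fell, Xbp1, with Prdm1 also lower without EAF2Faslpr replicate 1 (adjusted p = 0.0355) and Sdc1 without Faslpr replicate 3 (adjusted p = 0.0379). Its summed level over 7 tested genes was 690 to 851 CPM in EAF2Faslpr and 860 to 981 CPM in Faslpr libraries, with Sdc1 having the most reads at 365 ± 31.8 and 439 ± 43.9 CPM.

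Dendritic, natural killer and erythroid or platelet genes were few and mostly low. 1 of 7 dendritic genes rose, Ccr9, which lost its call without EAF2Faslpr replicates 2, 3 or 4, Faslpr replicates 1 or 2 or both replicates numbered 3 (adjusted p up to 0.0684; summed level of 4 tested genes 19.3 to 40.7 CPM in EAF2Faslpr and 27.7 to 48.9 CPM in Faslpr libraries, Itgax having the most reads at 28.0 ± 10.02 and 35.3 ± 8.75 CPM). 1 of 4 natural killer genes rose, Klrk1, though not without Faslpr replicate 2 (adjusted p = 0.0592) or both replicates numbered 3 (adjusted p = 0.0683). The sum over the 2 tested ones, 1421 to 1671 CPM in EAF2Faslpr and 1650 to 1979 CPM in Faslpr libraries, was almost wholly Eomes (1540 ± 113 and 1794 ± 137 CPM), a gene also expressed by T cells; the defining receptor gene Ncr1 was too low to test. None of 8 erythroid and platelet genes passed, with none at an unadjusted p under 0.05 among 4 tested and 0 by DESeq2 or limma-voom (sums 4.58 to 21.0 CPM in EAF2Faslpr and 5.96 to 25.4 CPM in Faslpr libraries, Hbb-bs having the most reads at 3.39 ± 3.004 and 3.83 ± 3.48 CPM). Without both replicates numbered 3, Hba-a1 passed as lower (log2 fold change -1.71, adjusted p = 0.0365, against -0.37 with them). The part of other cell types in the differences of the 9 genes was not tested. No gene of these lists was without reads in all 8 libraries.

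Whether the 9 genes rose in proportion to other B cell transcripts depended on which transcripts they were set against. Divided by the summed CPM of the 11-gene panel, 8 of the 9 were higher in EAF2Faslpr libraries, by log2 differences of 0.90 for Cd79b to 1.72 for Cd79a (exact two-sided permutation test over 70 orderings, p = 0.0286 for each, the smallest it allows, and 0.0321 adjusted over the 9), while Blnk did not pass (0.75, exact permutation p = 0.0857, 0.0857 adjusted). Ralgps2 made up 44.8 ± 6.21% of the panel sum in EAF2Faslpr and 73.7 ± 2.27% in Faslpr libraries (SD, n = 4 each). With Ralgps2 left out of the panel, a denominator chosen after the values were seen, none of the 9 passed (adjusted p from 0.0857 to 1, with Cd79a, Ms4a1 and Blk at an unadjusted exact permutation p of 0.0286). The groups did not overlap for Cd79a, Ms4a1 and Blk, whose unadjusted p was the smallest the test allows. With so few genes at that limit the adjusted p could not be below 0.0857, so the missing calls of these genes decide nothing. The log2 differences were then positive for Cd79a (0.65), Ms4a1 (0.61), Blk (0.58), Cd22 (0.48), Bank1 (0.25) and Btk (0.13) and negative for Syk (-0.0050), Cd79b (-0.16) and Blnk (-0.32). Pax5, the lineage factor of B cells and likewise chosen afterwards, itself rose by a log2 fold change of 2.54 (edgeR adjusted p = 0.000467). This exceeded the rise of each of the 9 genes. Division by Pax5 alone thus compares them with Pax5, not with B cell transcripts in general. All 9 differences were then negative, from -0.37 for Cd79a to -1.33 for Blnk. 7 of them passed the same exact permutation test at an adjusted p of 0.0367, while Cd79a (adjusted p = 0.0964) and Ms4a1 (adjusted p = 0.143) did not.

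**Figure D4:**
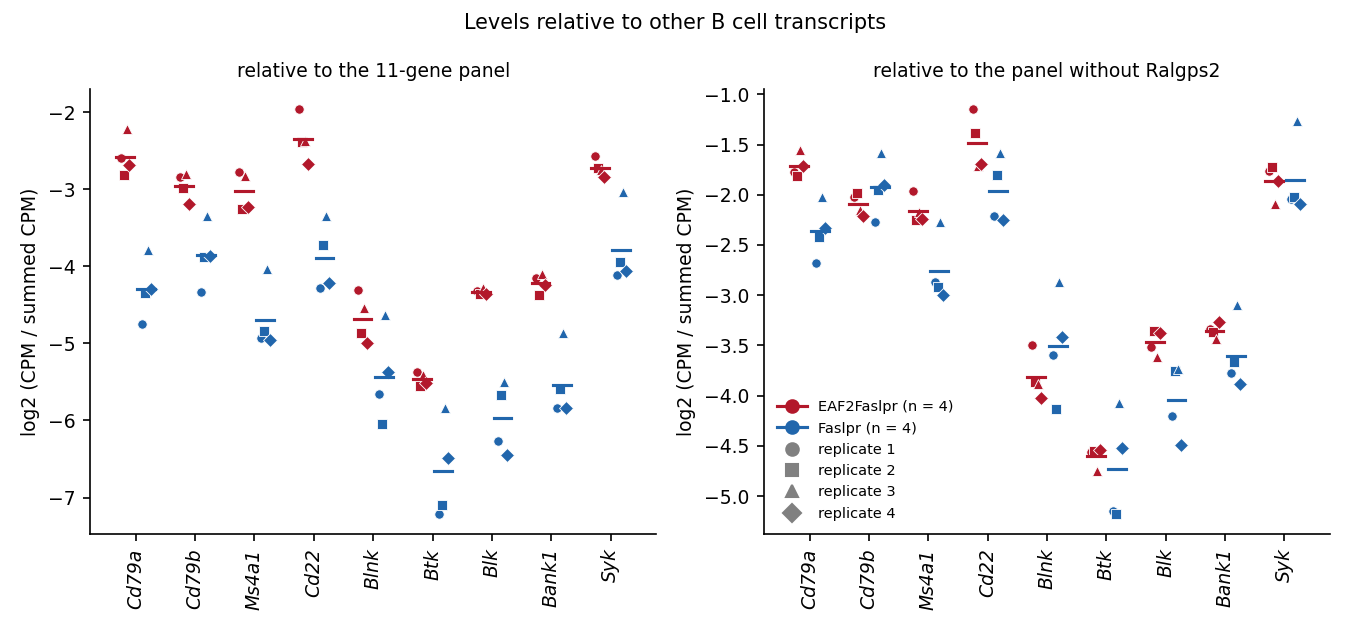
Log2 of each gene's CPM over the summed CPM of the 11-gene B cell panel (left) or of the same panel without Ralgps2 (right), per library, with bars at group means of 4 libraries. Against the panel all 9 group means were higher in EAF2Faslpr, and without Ralgps2 those of Cd79b, Blnk and Syk were not.

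Within groups the 9 genes moved together. After each group's mean was subtracted from log2 CPM, the Pearson correlation of each gene with the mean of the other 8 over the 8 libraries ran from 0.81 for Blnk to 0.97 for Bank1. The libraries share their depth and cell make-up, and these values describe them only. The replicates numbered 3 were the highest of both groups for all 9 genes, and the correlations were not computed without them. By the same measure over the 8 libraries without subtraction, the genes most like the mean of the 9, among 9916 others averaging at least 5 CPM, were the class II gene H2-DMb2 (r = 0.996), Fgd2 (0.995), Rapgef4 (0.995), the costimulatory ligand gene Icosl (0.995), Cd180, a B cell and myeloid surface receptor (0.993), and Irf5, an interferon regulatory factor (0.992). All 6 were themselves higher in EAF2Faslpr cells (adjusted p from 0.000818 to 0.00734), and this group difference enters the correlation. Cd180 is also in the B cell panel. With group means subtracted the genes most alike were Napsa (0.987), H2-Eb2 (0.980), Zfp965 (0.978), Icosl (0.976), Irf5 (0.975) and H2-K1 (0.973). Icosl and Irf5 stood in both sets. Icosl was at 14.4 ± 6.12 CPM in EAF2Faslpr and 2.78 ± 1.47 CPM in Faslpr cells, whereas H2-K1, of class I, was at 2850 ± 289 and 2904 ± 255 CPM and did not pass.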

How the data were processed

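RNA of sorted B220+CD3+ spleen cells was sequenced in 4 EAF2Faslpr and 4 Faslpr libraries, grouped by sample title. Per the labels' protocols, RNA was extracted with TRIzol and made into DNBSEQ mRNA libraries. The deposited table gave the authors' estimated counts and TPM per library; 16 other per-sample columns were not used. The build was GRCm39, and RSEM 1.3.1, HISAT2 2.2.1 and Bowtie2 2.4.5 were used in roles not stated, per the submitters' processing notes. Neither the annotation nor the strand setting is given in the sources used here. Whole numbers within 0.001 made up 36.8% of the estimated counts.

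Estimated counts were rounded, filtered by filterByExpr (12340 of 17384 genes kept), scaled by TMM and tested with edgeR's quasi-likelihood test (edgeR 4.0.16, R 4.3.3) over all genes, with Benjamini-Hochberg adjustment and a threshold of 0.05. Each adjusted p is from this test unless another is named. Standard errors are the absolute log2 fold change over the square root of F. Alternatives used DESeq2 1.42.0, limma 3.58.1, other scaling, no filter and left-out libraries. The test was checked on simulated counts. Replicates differed by more than sampling noise (chi-square per degree of freedom 9.46 to 37.2). Log2 ratios of CPM were compared with exact permutation tests. Likeness was taken on log2(CPM + 0.5).

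The 9 genes and all lists were chosen with earlier results of these data known. A few genes of the lists and of the planned panel, and 1 other denominator that needs one of them, are not reported here and are left out of the counts of every list. Named were the 9 genes, Eaf2, up to 3 passing genes of smallest p and the gene of highest mean CPM of each pathway list, T cell counterparts, the marker of highest mean CPM of each other cell type, and the 6 most alike genes by each measure. Genes outside this rule are said to be so, or are Fcrl5, Pirb, Cblb, Itpkb, Malt1, Cd72, Spib, Vpreb3, Hba-a1, Lyz2, Xbp1, Prdm1, Ccr9, Klrk1, Ngp, Ncr1 and Pax5, named after their values were seen. Reads shared with near-identical or overlapping genes were divided by the authors' estimation. The limit of 3 reads covers counting error only, whereas SDs and standard errors include variation between libraries.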

Additional observations from a re-analysis of the deposited data

Results flagged for a closer look

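In a group of 4 libraries, a library was singled out when its gap to the nearest other exceeded Dixon's critical share of the group's range, a limit that chance passes in about 1 of 20 groups; 22 groups were examined. EAF2Faslpr replicate 3 was singled out for Cd79a at 99.6 CPM, next to 50.1 CPM in the nearest EAF2Faslpr library, and for Ms4a1 at 64.9 CPM, next to 36.9 CPM. Both genes passed without that library, as the report gives for Cd79a and at a log2 fold change of 1.88 for Ms4a1.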

How the results depend on the processing

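The log2 fold changes of the 9 genes kept their direction in every fit run, and 8 or 9 genes passed, Blnk being the exception. Log2 fold changes of Eaf2 ran from -2.60 to -2.31 in the 8 fits that left out 1 library. Over all genes tested, 990 to 1599 passed in those fits, 372 to 659 of them lower, and 403 were lower without both replicates numbered 4. Among coreceptors 5 to 7 rose in those fits, with 5 without Faslpr replicate 2, and 0 to 1 fell. Without both replicates numbered 4, 6 rose and 0 fell. Among signalling genes shared by B and T cells 1 to 3 fell, and 2 by DESeq2 or without both replicates numbered 4. Of T cell counterparts 1 to 2 rose and 0 to 1 fell, while 1 rose without the filter, by limma on log2(TPM + 1) or log2(TPM + 0.1), and 1 fell by DESeq2.

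Same-numbered libraries of the groups were not treated as pairs in the main fit. Correlations of their deviations were 0.13, 0.17, 0.06 and -0.05, which cannot decide whether same-numbered libraries share an effect. With the replicate block 1 T cell counterpart rose in place of 2, and all 9 genes passed. The standard error was then 0.13 for Cd79a, against 0.30 in the main fit, and 0.10 for Syk, against 0.24. Without Ralgps2 in the panel, ratios of Cd79b (-0.16), Blnk (-0.32) and Syk (-0.0050) changed sign, but none passed (adjusted exact permutation p = 0.441 for Cd79b and Blnk). Blnk had not passed against the full panel either. Ratios of Cd79a (0.65), Ms4a1 (0.61), Cd22 (0.48), Btk (0.13), Blk (0.58) and Bank1 (0.25) stayed positive and no longer passed. For Cd79a, Ms4a1 and Blk the adjusted p could not be below 0.0857, as explained above. Pax5 rose by a log2 fold change of 2.54, more than any of the 9 genes, so every ratio to it was negative. These were Cd79a -0.37, Cd79b -1.18, Ms4a1 -0.41, Cd22 -0.54, Blnk -1.33, Btk -0.89, Blk -0.44, Bank1 -0.76 and Syk -1.02. The share of the panel held by Ralgps2 is given above and concerns the ratios to the panel only. No cause of the differences between denominators was tested. Ratios to the panel stayed positive when 1 library was left out, and no p is given for them. Levels of a few CPM, such as Btk in Faslpr libraries, rest on as few as 26 reads.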
